A study of Mus musculus with 6 samples.

Results

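The genes described here are those that were markedly less abundant in mouse myotubes after knockdown of H19, a long noncoding RNA that is abundant in developing and regenerating muscle, and that fall outside the large named families such as collagens, solute carriers and zinc finger genes. They were taken from the deposited comparison of 2 groups of C3H myotubes. C3H myoblasts are mouse cells that stop dividing and fuse into multinucleated muscle fibres when serum is reduced. Both groups were transfected 40 h after the start of differentiation and harvested 48 h later, on day 4, the siCon group with a control siRNA and the siH19 group with an siRNA against H19. Each group had 3 libraries made from total RNA depleted of ribosomal RNA, from transfections that the methods describe as done in triplicate.

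A feature was included if it carried a gene symbol, if its log2 FPKM was at least 1 lower in siH19 than in siCon, and if its log2 FPKM in siCon was at least 0. FPKM counts fragments relative to transcript length and to all mapped fragments, so levels of different genes can be compared per length, and a log2 FPKM of 0 is an FPKM of 1. Symbols of the large families, predicted genes and H19 itself were left out by name. Of 2549 features with a symbol in the table, 136 (5.34%) were at least 1 lower, 82 of these reached the level in siCon, 11 were left out by name and 71 remained. Because 1 of the 71 joins 4 symbols, they stand for 74 genes. The measured difference chose these features, so that it is given below as a description with no test. Every level is a single value that Cuffdiff estimated over the 3 libraries of a group, and the table lists only features that the authors called. The spread between libraries and their depth are therefore unknown, no error can be set beside a value, and a departure of 1 library cannot be told apart from one of all 3.

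The siRNA target checks the labels. H19 went from a log2 FPKM of 11.20 to 7.5, which leaves 7.69% of the siCon level. Of 22 genes fixed as markers of myotubes, 15 were in the table as 11 features. They included Acta1, the skeletal muscle actin, which went from a log2 FPKM of 11.30 to 11.86, and the joint feature of Myh1, Myh2, Myh3, Myh4 and Myh8, the fibre myosin heavy chains, which went from 9.57 to 10.25. Of the 11 features 10 were higher in siH19, against 60.1% of all features with a symbol. Both groups thus carried abundant muscle transcripts, and the 71 features below lay on the other side of the comparison.

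Most of the 71 features were scarce. Their log2 FPKM in siCon had a median of 1.28, a lower quartile of 0.48 and an upper quartile of 2.72, and ranged from 0.02 for Pctp to 8.52 for Tppp3. Over all features with a symbol the median was 3.30. In siCon 31 of the 71 were below 2 FPKM, and in siH19 36 were below 1 FPKM. Their difference had a median of -1.27 on the log2 scale, which leaves 41.5% of the siCon level, and ranged from -2.94 to -1. At least 2 log2 units were lost by 8: Gbp4, the feature joining Gbp6, Gbp8, Gbp10 and Gbp11, Hdc, Krt13, Myo7b, Smtnl1, Hist1h2ba and Dynlt1f. With the signs turned, the same rule of names, level and size gave 183 features that were higher in siH19, with a median of 1.24.

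**Figure D1:**
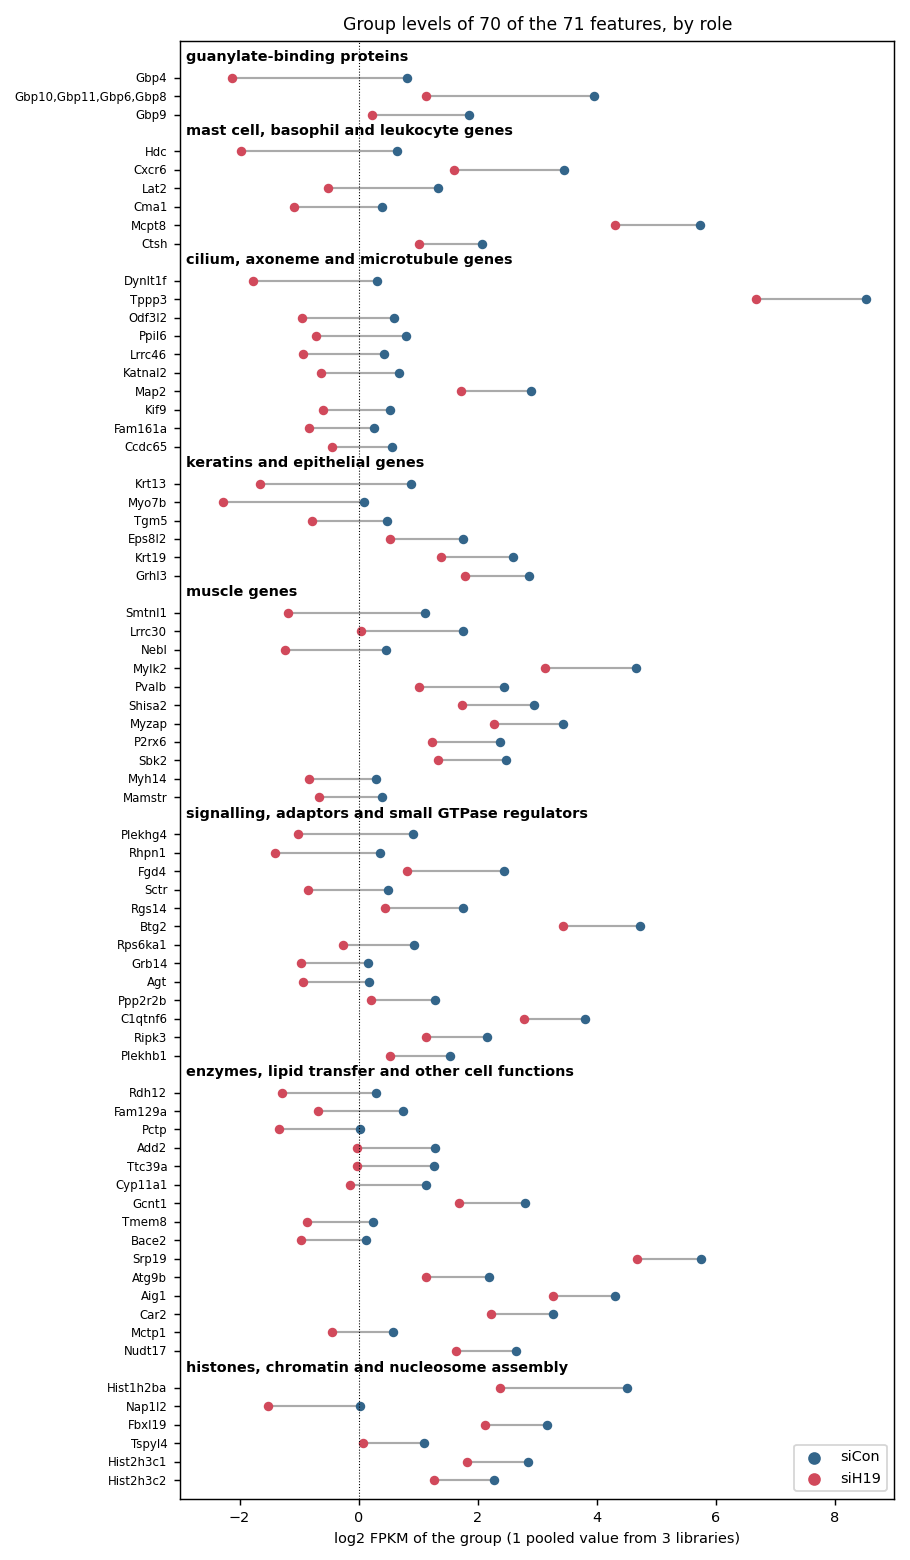
Log2 FPKM of 70 of the 71 features in siCon (blue) and siH19 (red), 1 pooled value per group, grouped by role and joined by a line. Tppp3 stands far above the others in both groups (8.52 and 6.67), and most of the cilium, axoneme and microtubule genes start just above the dotted line at a log2 FPKM of 0.

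**Figure D2:**
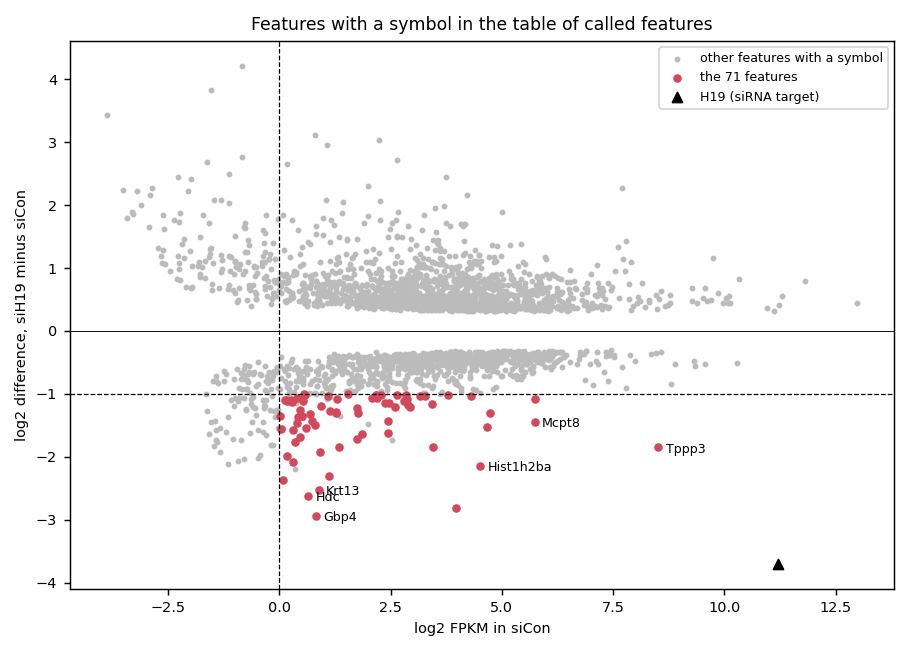
Log2 FPKM in siCon (horizontal axis) against the log2 difference of siH19 minus siCon (vertical axis) for the 2549 features with a symbol. The dashed lines are the thresholds of the rule, the 71 features are red, H19 is a black triangle, and the empty band around a difference of 0 reflects that only called features are listed.

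The thresholds cut through a continuous range. Just inside the threshold on the difference lay Ccdc65 at -1, Plekhb1 at -1.01 and, at -1.02, C1qtnf6, Hist2h3c1, Hist2h3c2, Mctp1, Nudt17 and Ripk3. Just outside it, Acvr2b had -0.99 and Aim1, Cd24a, Gap43, Ifitm6, Igsf11 and Nabp1 had -0.98. Levels were deposited to 2 decimals, so a difference can be off by 0.01, and Ccdc65 and Acvr2b cannot be placed on either side with certainty. At the threshold on the level, Pctp (0.02), Nap1l2 (0.03) and Myo7b (0.09) were just inside, and Fam26e (-0.03), Pebp4 (-0.04), Cd300lb (-0.06) and Golga7b (-0.10) just outside.

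Guanylate-binding proteins are GTPases that interferons induce and that act against pathogens inside cells. They gave 3 of the 71 features, Gbp4, Gbp9 and one that joins Gbp6, Gbp8, Gbp10 and Gbp11. The joint feature was the most abundant, at 15.6 FPKM in siCon and 2.20 in siH19, which leaves 14.2%. Gbp4 kept 13% of a lower level, 1.77 FPKM in siCon and 0.230 in siH19. Gbp9 kept 32.1%, with 3.63 and 1.16 FPKM. All 3 were assigned 1 locus, chromosome 5 from 105014153 to 105346474 in mm10, and the coding sequences of the 6 genes are 76.6 to 98.4% identical over 15 pairs. Reads could be split between them, so the values of single genes are uncertain. Among 12 guanylate-binding protein genes listed, 8 were in the table, in 5 features. For 3 of these the direction follows from the rule, beside 39.9% lower among all features with a symbol. The remaining pair, Gbp2 and Gbp1, was not chosen by it and had differences of -0.87 and -0.75. Gbp2 is no more than 60.2% identical to any of the 6 genes on chromosome 5.

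A group of genes known from mast cells, basophils and other leukocytes was also among the 71. Hdc makes histamine from histidine, and it had 1.57 FPKM in siCon and 0.255 in siH19 (16.3%). Mcpt8, a granule protease of basophils, was by far the most abundant of this group, at 53.4 FPKM in siCon and 19.7 in siH19 (36.9%). Cma1, the mast cell chymase, had 1.31 and 0.473 FPKM. Both proteases lie on chromosome 14, Cma1 from 55941451 to 55944661 and Mcpt8 from 56082144 to 56085465, and their coding sequences are 54.7% identical, less than any pair of the guanylate-binding proteins on chromosome 5. Lat2, an adaptor of antigen and IgE receptor signalling, had 2.51 FPKM in siCon and 0.697 in siH19. Ctsh, a lysosomal cysteine protease found in many cells, went from 4.23 to 2.01 FPKM.

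Of 20 mast cell and basophil markers, 4 were in the table (Hdc, Mcpt8, Cma1 and Lat2), and all 4 are among the 71. The list holds no feature that the rule did not choose, so its direction is fixed by the rule (5.34% of all features with a symbol were at least 1 lower). The other 16, which include Kit, Cpa3, Fcer1a and Ms4a2, were not listed as called, so that their levels are not known here. Of 14 leukocyte markers, 2 were in the table, Lat2, which is on both lists, and Cxcr6. Both are among the 71, so their direction too is fixed by the rule. The other 12 were not listed as called. Fewer cells that express a gene and less RNA per cell cannot be told apart in these libraries, and the part of other cell types in the result was not tested.

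Cxcr6, the receptor of the chemokine CXCL16, calls for separate reading. Its feature had 10.9 FPKM in siCon and 3.03 in siH19 (27.7%), but it spans chromosome 9 from 123789434 to 123862029 and overlaps Fyco1 and Xcr1 as well. Fyco1 has a feature of its own in the table, which moved the other way, from a log2 FPKM of 3.26 to 3.99. Of the 69 members with a single symbol that was matched once in GENCODE, 12 had features reaching more than 1 kb beyond the annotated gene, and 9 overlapped another protein-coding gene. Those 9 are Cxcr6, Gbp4, Gbp9, Plekhg4 (which reaches into Kctd19), Atg9b (Nos3), Nudt17 (Pias3), Lat2 (Rfc2), P2rx6 (Slc7a4) and Tspyl4 (Nt5dc1).

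Cilia and flagella are built on an axoneme of doublet microtubules, which dynein arms, the nexin-dynein regulatory complex and intraflagellar transport assemble and move. Most cells carry a single primary cilium without motility, while motile cilia and sperm tails need a further set of genes. The 71 features held 11 genes of cilia, axonemes or microtubules. Tppp3, which binds and bundles microtubules, was the most abundant of all 71, with 367 FPKM in siCon and 102 in siH19 (27.7%). Its feature lies on chromosome 8 (105467492 to 105471422, minus strand). Tppp3 alone made up 45.7% of the summed FPKM of the 71 in siCon and 37.0% in siH19. With Tppp3 the sum in siH19 was 34.3% of that in siCon, and without it 39.8%.

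The other genes of this group were near 1 FPKM in siCon, apart from Map2. Odf3l2, related to the outer dense fibres of sperm tails, went from 1.51 to 0.518 FPKM, and Lrrc46 from 1.34 to 0.521. Katnal2, a katanin-like subunit related to microtubule severing, had 1.60 and 0.642 FPKM. Kif9, a kinesin of motile cilia, kept 46.3%, Fam161a, a protein of the photoreceptor cilium and centrosome, kept 47.0%, and Ccdc65, a subunit of the nexin-dynein regulatory complex, kept 50%. Ppil6 had 1.73 and 0.611 FPKM. Map2, the neuronal microtubule-associated protein, stood higher, at 7.41 and 3.29 FPKM. Of the 11 genes 9 were below 1 FPKM in siH19, Tppp3 and Map2 being the exceptions.

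Dynlt1f, a light chain of cytoplasmic dynein, had 1.24 FPKM in siCon and 0.293 in siH19, but its reads cannot be assigned with certainty. The feature lies on chromosome 17 from 6601671 to 6607899 and found no single match to Dynlt1f in GENCODE. A RefSeq promoter window of Dynlt1f, from 6655890 to 6656189, lies outside the feature but is counted among the promoters below. Which copy the feature measures is therefore uncertain. The Dynlt1f coding sequence of 339 bases is identical to those of Dynlt1a and Dynlt1c and differs from that of Dynlt1b at 1 base. The first 60 coding bases are shown, from the GENCODE transcripts of GRCm38, with the differing base in capitals, to show how little separates the copies.
Dynlt1f: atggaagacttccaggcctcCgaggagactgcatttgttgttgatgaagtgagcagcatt
Dynlt1a: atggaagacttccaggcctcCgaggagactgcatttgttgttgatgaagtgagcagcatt
Dynlt1b: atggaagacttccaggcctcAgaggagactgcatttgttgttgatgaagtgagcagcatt

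A list of 55 cilium and axoneme genes, which includes 10 of these 11 genes, was set beside the whole table. Of the 55 genes 22 were in the table, and the 22 features were lower in siH19, with a median difference of -0.62. For the 10 the direction follows from the rule. The other 12 were not chosen by it, and their differences ran from -0.65 to -0.36 with a median of -0.52, beside 39.9% lower among all features with a symbol. Their size was ordinary, since lower features with a symbol outside the 71 had a median of -0.5. The list itself was chosen with earlier results of these data known. Of the intraflagellar transport proteins, which carry cargo along the axoneme, Ift74 went from a log2 FPKM of 5.29 to 4.73, Ift88 from 3 to 2.44, and Ift140 from 2.89 to 2.30. Ift57, Ift80 and Ift81 had differences of -0.42, -0.45 and -0.36. Bbs1 and Bbs4, subunits of the BBSome that sorts membrane proteins of the cilium, had -0.47 and -0.55. Arl13b, a GTPase of the ciliary membrane, had -0.42, and Cep164 and Odf2, both parts of the appendages that anchor the basal body, had -0.60 and -0.48. These 12 were better expressed than most of the 10, with log2 FPKM in siCon between 2.13 and 5.29. The remaining 33 genes of the list, Foxj1 and the axonemal dynein heavy chains Dnah5, Dnah9 and Dnah11 among them, were not listed as called.

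**Figure D3:**
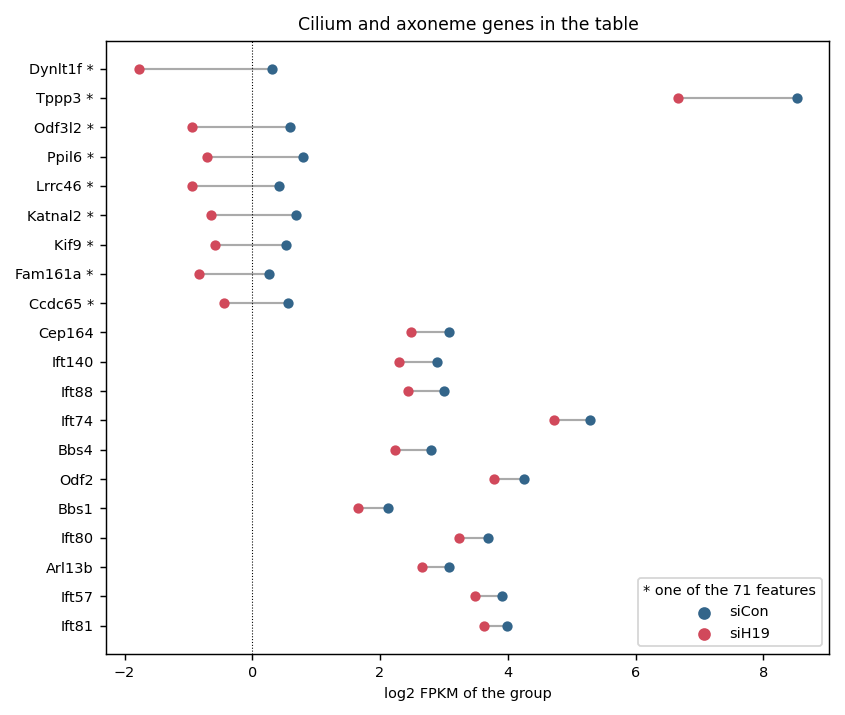
Log2 FPKM in siCon (blue) and siH19 (red) for 20 of the 22 features of the cilium and axoneme list that are in the table, ordered by the size of the difference, with an asterisk for those among the 71. The red point lies left of the blue one in each row. The asterisked genes other than Tppp3 start between 0.26 and 0.79, and the others start between 2.13 and 5.29.

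Muscle genes made up 11 of the 71. Mylk2, the skeletal muscle kinase that phosphorylates the regulatory light chain of myosin, was the most abundant, with 25.3 FPKM in siCon and 8.75 in siH19 (34.6%). Smtnl1, a smoothelin-like protein that is a target of cyclic nucleotide-dependent kinases in muscle, had the largest difference of the group, from 2.17 to 0.441 FPKM (20.3%). Pvalb, the calcium buffer of fast fibres, went from 5.46 to 2.03 FPKM. Nebl, a nebulin-like protein of the cardiac Z disc, went from 1.38 to 0.426 FPKM, and Lrrc30 from 3.36 to 1.03. Myzap, a protein of the cardiac intercalated disc, kept 44.8% of 10.8 FPKM. P2rx6, an ATP-gated channel subunit, and Sbk2, a kinase, kept 45.4% each, and Shisa2, which retains Wnt and FGF receptors in the endoplasmic reticulum, 43.2%. Mamstr, a coactivator of MEF2 factors, and Myh14, a nonmuscle myosin heavy chain, were close to 1 FPKM in siCon and kept 48.0% and 45.7%.

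Related kinases of myosin light chains did not share one direction. Mylk, the smooth muscle and nonmuscle form, had a difference of -0.42 (log2 FPKM 2.69 and 2.27), and Mylk4 had 1.80 (0.99 and 2.79). In a list of 26 genes on calcium, myosin kinases and myosin regulation, which was written with these 11 members in it, 13 were in the table. The direction of the 11 follows from the rule, and the 2 others were Mylk and Mylk4. The myotube markers were mostly on the other side, with Myog, the myogenic regulator of fusion-stage cells, at 7.79 and 9.22, and Actc1, the cardiac actin of early muscle, at 7.70 and 9.98. Myf5, a regulator of myoblasts, was the 1 myotube marker that was lower, at 3.41 and 3.03. Lower levels of Mylk2, Pvalb and Smtnl1 thus stood beside higher levels of 10 of the 11 myotube features.

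**Figure D4:**
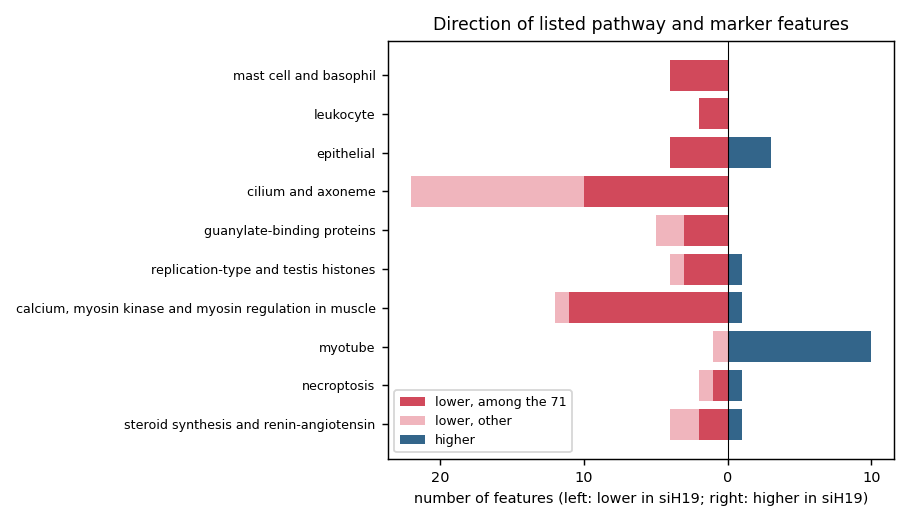
Number of features in the table from each of 10 lists, with lower ones to the left (dark red: among the 71, light red: others) and higher ones to the right (blue). The cilium and axoneme list has 22 features, with none on the right, and the myotube list has 10 of its 11 on the right.

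Keratins and other epithelial genes gave 6 features. Keratins form intermediate filaments of epithelia, and the features of Krt13 and Krt19, both in the type I cluster, are 19315 bp apart on chromosome 11. Krt13 had 1.84 FPKM in siCon and 0.319 in siH19 (17.3%), and Krt19 had 6.06 and 2.62 (43.2%). Krt14, a keratin of the same cluster, moved the other way, from a log2 FPKM of 1.66 to 2.38. The coding sequences of the 3 keratins are 61.4 to 67.0% identical. Grhl3, a transcription factor of the epidermal barrier, had 7.31 and 3.46 FPKM. Tgm5, a transglutaminase of the epidermis, had 1.39 and 0.578 FPKM. Myo7b, a myosin of microvilli in the brush border, went from 1.06 to 0.206 FPKM, and Eps8l2, an actin regulator, from 3.36 to 1.43.

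Of 20 epithelial marker genes 7 were in the table, and 4 of these were lower, beside 39.9% lower among all features with a symbol. The 4 lower ones (Krt13, Krt19, Grhl3 and Tgm5) are all among the 71, so their direction follows from the rule. The 3 others were not chosen by it and were higher. Those were Krt14, Cdh1 (E-cadherin, from 0.03 to 0.75) and Pkp1 (a desmosome protein, from 3.23 to 4.29).

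Histones package DNA, and the genes used in replication give transcripts that mostly lack poly(A) tails, which libraries depleted of ribosomal RNA retain. Hist1h2ba, which encodes an H2B variant known from testis, had 22.8 FPKM in siCon and 5.17 in siH19 (22.7%). It is a short gene, on chromosome 13 from 23933773 to 23934156. Hist2h3c1 and Hist2h3c2, both for histone H3, kept 49.3% each, from 7.16 and 4.86 FPKM. They lie 7557 bp apart on chromosome 3. Another copy, Hist2h3b, was higher in siH19, with a log2 FPKM of 3.21 and 3.71. In the coding form of 408 bases that is annotated for all 3 genes, Hist2h3b differs from the other pair at 1 base, and Hist2h3c1 and Hist2h3c2 are identical. A longer coding form of 543 bases is annotated for Hist2h3c1 as well, and it is 75.1% identical to Hist2h3c2 over its whole length. The stretch of the form of 408 bases that holds the 1 differing base is shown, with that base in capitals. The remaining bases of the form of 408 bases are the same in all 3.
Hist2h3c1: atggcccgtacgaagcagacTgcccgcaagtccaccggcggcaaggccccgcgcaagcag
Hist2h3c2: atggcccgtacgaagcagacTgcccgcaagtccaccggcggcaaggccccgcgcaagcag
Hist2h3b: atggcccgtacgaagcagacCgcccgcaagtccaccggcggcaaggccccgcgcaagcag

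Fragments from most of the coding form of 408 bases match all 3 genes. The values of the single copies, and with them the opposite directions, are therefore uncertain. Of 53 histone genes listed, 5 were in the table. Besides the 4 named, H3f3b, a replacement H3, had a log2 FPKM of 7.88 and 7.5. Nap1l2, a histone chaperone known from neurons, went from 1.02 to 0.346 FPKM, and Tspyl4, of the same wider family, from 2.14 to 1.05. Fbxl19, which binds CpG islands and belongs to a ubiquitin ligase, went from 8.94 to 4.35 FPKM.

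Signalling genes formed a group of 13. Several act on small GTPases, which set the actin cytoskeleton and growth signals. Plekhg4, a guanine nucleotide exchange factor, kept 26.4% of 1.88 FPKM, and Rhpn1 kept 29.5% of 1.28. Fgd4, an exchange factor for Cdc42, had 5.43 and 1.75 FPKM (32.3%). Rgs14, a regulator of G protein signalling, had 3.39 and 1.37 FPKM. The most abundant of the 13 was Btg2, an antiproliferative gene that p53 and growth factors induce, with 26.5 FPKM in siCon and 10.8 in siH19 (40.6%). C1qtnf6, a secreted protein related to C1q and adiponectin, had 13.9 and 6.87 FPKM.

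The other signalling genes kept between 39.2% and 49.7% of their siCon level. They were Sctr (the secretin receptor), Rps6ka1 (a ribosomal S6 kinase downstream of ERK), Grb14 (an adaptor that restrains the insulin receptor), Agt (angiotensinogen), Ppp2r2b (a regulatory subunit of protein phosphatase 2A), Ripk3 (the kinase of necroptosis) and Plekhb1. Of 7 necroptosis genes, 3 were in the table. Ripk3 went from 4.47 to 2.20 FPKM, Casp8, the protease that restrains necroptosis, had a difference of -0.40, and Cyld, a deubiquitinase, 0.46.

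Enzymes and genes of other cell functions were the largest group, with 15 features and differences from -1.58 to -1.02. Srp19, a protein of the signal recognition particle that guides nascent proteins to the endoplasmic reticulum, was abundant, with 53.8 FPKM in siCon and 25.5 in siH19 (47.3%). Aig1, a hydrolase of fatty acid esters, had 19.8 and 9.65 FPKM, and Car2, a cytosolic carbonic anhydrase, 9.65 and 4.69. The neighbouring Car3 moved the other way, from a log2 FPKM of 3.25 to 4.27. Rdh12, a retinal reductase, had 1.23 and 0.412 FPKM (33.4%). Pctp, which transfers phosphatidylcholine, had 1.01 and 0.398. Cyp11a1, which cuts the side chain of cholesterol as the first step of steroid synthesis, had 2.19 and 0.908. Fdx1 and Fdxr, its electron donors, were in the table as well, with differences of -0.41 and -0.59. Ace, from the renin-angiotensin part of the same list of 15 genes, was higher, from a log2 FPKM of -1.28 to -0.30.

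The remaining genes of this group kept between 37.1% and 49.3%. They were Fam129a (Niban), Add2 (an adducin of the membrane skeleton), Gcnt1 (a glycosyltransferase of core 2 O-glycans), Tmem8, Bace2 (a protease related to beta-secretase), Atg9b (an autophagy membrane protein), Mctp1, Nudt17 and Ttc39a. Ttc39a has a second feature in the table, and that one was higher in siH19 by 0.78, so its direction depends on the feature.

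The size of the difference rests on the low end of the scale for many of the 71. When 1 was added to each FPKM before taking logarithms, 19 of the 71 were still at least 1 lower, and 5 fell short of 0.5. The joint guanylate-binding protein feature (-2.37), Hist1h2ba (-1.95), Tppp3 (-1.84), Cxcr6 (-1.57), Mylk2 (-1.43), Mcpt8 (-1.40) and Btg2 (-1.23) led on that scale. Hdc went from -2.62 to -1.03 and Gbp4 from -2.94 to -1.17. Of the 11 genes of cilia, axonemes and microtubules, Tppp3 was the 1 that stayed at least 1 lower. With 0.1 added, 57 of the 71 did.

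**Figure D5:**
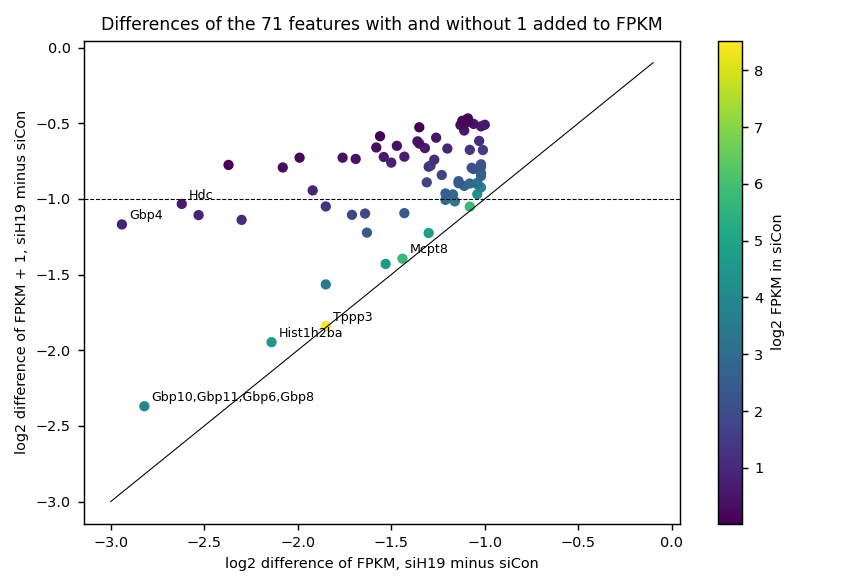
Log2 difference of siH19 minus siCon from FPKM (horizontal axis) against the same from FPKM + 1 (vertical axis) for the 71 features, coloured by log2 FPKM in siCon. Points on the solid line are unchanged. Abundant features such as Tppp3 and Mcpt8 lie on or near it, and scarce ones such as Gbp4 and Hdc lie far above it.

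Position was not used by the rule. The 71 features were spread over 20 chromosomes, with at most 6 on any 1 (chromosomes 2 and 7). Within 100 kb of another of the 71 lay 9 features: the 3 guanylate-binding protein features, Krt13 and Krt19, Hist2h3c1 and Hist2h3c2, and Plekhg4 and Tppp3, whose features are 54004 bp apart. Of 50 other listed features within 100 kb of a member, 19 were lower and 31 higher, beside 37.2% lower among all features in the table. Neighbours of the 71 were thus not mostly lower. The annotated genes of the 71 were compact, with a median span of 15.9 kb against 24.9 kb for other lower features and 35.8 kb for higher ones, as a description with no test. All 69 matched genes are annotated as protein coding. So are 845 of 852 matched genes of other lower features and 1384 of 1406 of higher ones, and the rule on names leaves out predicted genes.

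Promoters, taken as 250 bases before to 50 after the start in RefSeq (GRCm38.p6), were available for 50 of the 74 genes. They were searched on both strands for 4 short motifs. The core GTTGCCA of the X-box, which RFX factors bind in ciliary genes, was found for 2 of the 50 genes (4.00%, against 5.02% of all genes), Kif9 and Tspyl4. Both matches are shown with the motif in capitals, Kif9 as the 30 bases before one of its starts (chr9:110476964-110476993, plus strand) and Tspyl4 as the 60 bases before its start (chr10:34297361-34297420, plus strand).
Kif9: cctGTTGCCAtggcgactgtgtacacagcc
Tspyl4: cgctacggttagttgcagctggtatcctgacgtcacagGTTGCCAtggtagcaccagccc

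The E-box CANNTG, which myogenic regulators and other basic helix-loop-helix factors bind, was found for 41 of the 50 genes (82.0%, against 75% of all genes). A gene can have several promoters in the table (66 for the 50 genes, and 32851 for all 27025), and counted per promoter the shares were 74.2% and 72.3%. For GTTGCCA they were 4.55% and 4.38%. Stretches of up to 100 bases before a start were examined for some of the genes. Those of Smtnl1, Cma1, Lrrc30 and Mcpt8 held an E-box, and those of Hdc, Mamstr and Pvalb did not. Examples with a match are shown with E-boxes in capitals, Smtnl1 because it has the largest difference of the muscle genes and Cma1 as a mast cell gene. They are the 90 bases before the Smtnl1 start (chr2:84822653-84822742) and the 100 bases before the Cma1 start (chr14:55944676-55944775), both on the minus strand.
Smtnl1: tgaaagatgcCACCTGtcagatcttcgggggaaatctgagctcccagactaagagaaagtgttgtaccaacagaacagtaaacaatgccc
Cma1: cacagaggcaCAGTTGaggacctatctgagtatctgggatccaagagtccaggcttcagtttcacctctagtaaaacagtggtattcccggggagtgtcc

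The gamma-activated site TTCNNNGAA was found for 3 of the 50 genes (6.00%, against 9.55%), Agt, Hist1h2ba and Plekhg4, and the core of the interferon-stimulated response element for Nebl alone (2.00%, against 3.99%). The guanylate-binding proteins and Tppp3 were among the 24 genes whose promoters were not searched. A match describes letters in the window and not a bound site.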

How the data were processed

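The authors mapped reads to mm10 with TopHat and compared the groups with Cufflinks and Cuffdiff 2.1.1. The submitters' processing notes also name TopHat2 2.0.7 and TopHat 1.0.0. The authors deposited 1 log2 FPKM per group and feature, rounded to 2 decimals. The annotation given to the assembly is not given in the sources used here. The deposited columns with the authors' log2 fold change and q value (an adjusted p-value) hold their own comparison and were not used. Depth per library is unknown, so no precision can be given. Coordinates are printed with the first base numbered 1.

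Differences were computed from the 2 levels with Python 3.11.15, numpy 2.4.6 and pandas 2.3.3. No test across libraries was possible. The members, their roles, the gene lists and the motifs were chosen with earlier results of these data known. Of the 71 features 70 are named, by role, and 1 is not reported by name here, nor is 1 feature of the cilium list. Full values are given for the largest differences, the roles described at length and those nearest the thresholds. Other genes are named from the lists, within 100 kb of a member, as overlapping or near-identical copies, just outside a threshold, or, in the closing section, after their values were seen. The longest annotated coding sequence of each gene came from GENCODE transcripts of GRCm38, and pairs were aligned globally with Biopython 1.88. The H3 sequences shown are the form of 408 bases that all 3 genes share. Protein sequences were not used here, so identity is between coding sequences. In a simulated table of 2284 features, the rule recovered 200 of 200 planted members and no other feature. The planted features were set to pass both thresholds and every other feature to miss at least 1 of them. This outcome shows only that the rule was coded as stated, and nothing about its behaviour on scarce transcripts.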

Additional observations from a re-analysis of the deposited data

How the results depend on the processing

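No paired analysis was possible because each group has 1 pooled value, and for the same reason no library could be left out. The count of 71 and the median difference of -1.27 depend on the thresholds by construction. A difference of at least 1.5 gave 23 features (median -1.85) and one of at least 0.58 gave 293 (median -0.79). A siCon log2 FPKM of at least 1 gave 40 (median -1.19), and no threshold on the level gave 110 (median -1.29). With log2(FPKM + 1) 19 features remained (median -1.14), and with log2(FPKM + 0.1) 57 (median -1.25). Features with 1 symbol whose locus was given to no other listed feature numbered 65 (median -1.23), none of them a guanylate-binding protein, though some overlap an annotated gene, and keeping the symbols left out by name gave 81 (median -1.29). With only the 250 upstream bases, the interferon-stimulated response element core was found for 0 of the 50 genes. Within 50 kb 7 features lay near another of the 71, and within 250 kb 12 did.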

Other observations

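A further 39 features that pass the rule on names were at least 1 lower in siH19 from a log2 FPKM below 0 in siCon, and so fall outside the 71. They were named after their values were seen. The largest differences among them were those of Sim1 (-2.12), a transcription factor of hypothalamic neurons, Esrrb (-2.03), an orphan nuclear receptor, Tspan1 (-2.02), a tetraspanin, and Zp2 (-1.98), a protein of the egg coat. Pax5, the B cell factor, went from a log2 FPKM of -0.48 to -2.05. The depth behind these low levels is unknown.

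Besides H19, 10 features passed both thresholds and were left out by name alone, and those named here were also chosen after their values were seen. The most abundant was 1810011O10Rik, which went from a log2 FPKM of 3.62 to 2.62. Il1rn, the receptor antagonist of interleukin 1, had 1.37 and 0.02, and Adam8, a membrane protease, had 1.99 and 0.51. The feature of the Mir17 cluster had 2.54 and 0.81.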
